A study of Mus musculus with 163 samples.

Results

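The set described here holds the genes that carry a signal from a G protein-coupled receptor to cyclic AMP and its kinase. All gene symbols that begin as G protein alpha, beta or gamma subunits (Gna, Gnb, Gng), regulators of G protein signalling (Rgs), adenylate cyclases (Adcy), phosphodiesterases (Pde) or subunits of protein kinase A (Prkaca, Prkacb, Prkar) were taken, which gave 78 of the 12187 genes in the table. They comprised 12 Gna, 7 Gnb, 9 Gng, 17 Rgs, 8 Adcy, 19 Pde and 6 kinase genes. The symbol rule also took in a few genes that are not what the prefix says, namely Gnb2l1 (the ribosome-bound scaffold Rack1), Gnb1l, Rgs7bp (a membrane anchor of RGS proteins), Pde6d (a chaperone of lipid-modified proteins), Pde4dip and Pde12. These 6 were counted with the others but kept out of the sums over subunits.

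Expression was measured by single-cell RNA-sequencing of GFP-positive neurons from the medial basal hypothalamus of young adult male Pomc-eGFP mice, strain C57/BL6 Tg(Pomc-EGFP)1Low, fed ad libitum. Every cell carried the same transgene, in which Pomc regulatory sequences drive EGFP, so cells entered the study by reporter fluorescence and not by their own Pomc transcript. No treatment separated the cells. They were split by transcript levels in log2RPM, which is log2 of the reads in a cell scaled to a common total (RPM): 48 Agrp-high cells had Agrp above 10, 34 very-high-Pomc cells had Agrp at or below 10 and Pomc of at least 12, and 81 remaining cells had neither. The very-high-Pomc and remaining classes together are called Agrp-low cells. The Agrp-high cell closest to the limit had 10.12 log2RPM of Agrp and the closest cell below it had 9.99, while the next lower cell had 7.15. The very-high-Pomc cell closest to the limit had 12.20 log2RPM of Pomc, and the closest remaining cell had 11.91.

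The labels name no animal, plate or batch for a cell, so all the cells count as 1 sample, cells are not replicates, and no test or p-value is given. Values are given as spread over cells. A difference of at least 1 between class means on the log2RPM scale is called higher or lower, and a gene is called detected in a cell at 5 RPM or more. A cell with no read for a gene is listed at −0.91 log2RPM, and a value between that floor and the detection limit rests on few reads. The range in brackets after a share of cells is its exact 95% binomial interval by the method of Clopper and Pearson. It covers only the error of counting. For a count of 0 a limit of 3 cells over the cells of the class is given in its place, which is approximate and not this interval.

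The whole reads recovered from the steps between low values gave 1.46 to 41.9 M reads per cell, with medians of 8.45 M in Agrp-high, 8.13 M in very-high-Pomc and 7.88 M in remaining cells. The cell numbers of the labels were split into 3 stretches, 1 to 66, 67 to 98 and from 99 on. The labels mark no such limits, which were taken from earlier results of these data, so the stretches are not known batches. The first holds 32 of the 48 Agrp-high cells, 8 of the 34 very-high-Pomc cells and 26 of the 81 remaining cells. Oligodendrocyte markers (5 genes) were at 5 log2RPM or more for at least 3 genes in 8 Agrp-high, 0 very-high-Pomc and 5 remaining cells. Their summed level per cell ran to 645 RPM in Agrp-high and 234 RPM in very-high-Pomc cells, and to 151849 RPM in remaining cells. Leaving those cells out kept 12 of the 13 members called higher and all 5 called lower in Agrp-high cells, and all 3 called higher and 6 of the 8 called lower in very-high-Pomc cells. Pituitary markers (3 genes) marked 0 cells, but their sum ran to 43.4 RPM in Agrp-high, 1786 RPM in very-high-Pomc and 17697 RPM in remaining cells. Oligodendrocyte precursor, astrocyte and tanycyte markers had fewer than 3 measured genes and could mark no cell. A class with 0 marked cells is thus not shown to be free of other cell types.

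In the resting state a heterotrimeric G protein holds GDP on its alpha subunit, and an activated receptor exchanges this for GTP and frees the alpha subunit and the beta-gamma dimer. Gs and Golf stimulate adenylate cyclase, Gi, Go and Gz restrain it, and Gq-type subunits act on phospholipase C, while RGS proteins end the signal by speeding GTP hydrolysis. Cyclic AMP then releases the catalytic subunits of protein kinase A from their regulatory subunits and is destroyed by phosphodiesterases. In the arcuate nucleus this cascade lies downstream of the receptors for many peptides and amines that act on Pomc and Agrp neurons.

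A common core of the members was detected in nearly every neuron. Of the 78 genes, 6 were detected in every cell and 18 in at least 95% of them. Over all 12187 genes, 2711 were detected in at least 90% of cells. The number of all genes at 95% is not given here, so these counts are not a result about the members. The 18 were the G alpha genes Gnas, Gnai2, Gnao1, Gnaq and Gna11, the beta genes Gnb1, Gnb2 and Gnb5, Gnb2l1, the gamma genes Gng2, Gng3 and Gng10, both kinase catalytic genes Prkaca and Prkacb, the regulatory genes Prkar1a and Prkar1b, Rgs2 and Pde6d. No adenylate cyclase was in this core, since the most widely detected one, Adcy5, was found in 59.5% of cells. At the other end, 9 genes were detected in fewer than 10% of cells: Adcy7, Adcy8, Adcy9, Gna14, Gng11, Gng13, Pde11a, Pde4c and Rgs22. Each of the 12187 genes was detected in at least 7 cells, so rarer genes of these families are not counted. The median cell expressed 46 of the 78 genes among Agrp-high cells (range 37 to 51), 43.5 among very-high-Pomc cells (range 25 to 58) and 45 among remaining cells (range 26 to 58). Over all genes the medians were 7286.5, 7132.5 and 6853 detected genes in these classes. Per 100 detected genes the median number of members was 0.622, 0.614 and 0.647, so by this measure the remaining cells came first.

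The first comparison asked which parts of the cascade separate the Agrp-high cells from the Agrp-low cells. Of the 78 members, 13 (16.7%) were higher in Agrp-high cells, against 8.65% of all 12187 genes. Lower in Agrp-high cells were 5 members (6.41%), against 2.94% of all genes. The median difference was 0.03 over the members and 0.19 over all genes. The 13 were Gnb3, Rgs2, Prkar2b, Pde8b, Adcy2, Rgs6, Gnal, Adcy5, Rgs9, Rgs11, Rgs4, Rgs17 and Gnb5, and the 5 were Pde1a, Pde4b, Rgs20, Pde10a and Pde7a. By family, 6 of 17 Rgs genes were higher and 1 was lower, whereas 4 of 19 Pde genes were lower and 1 was higher.

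**Figure D1:**
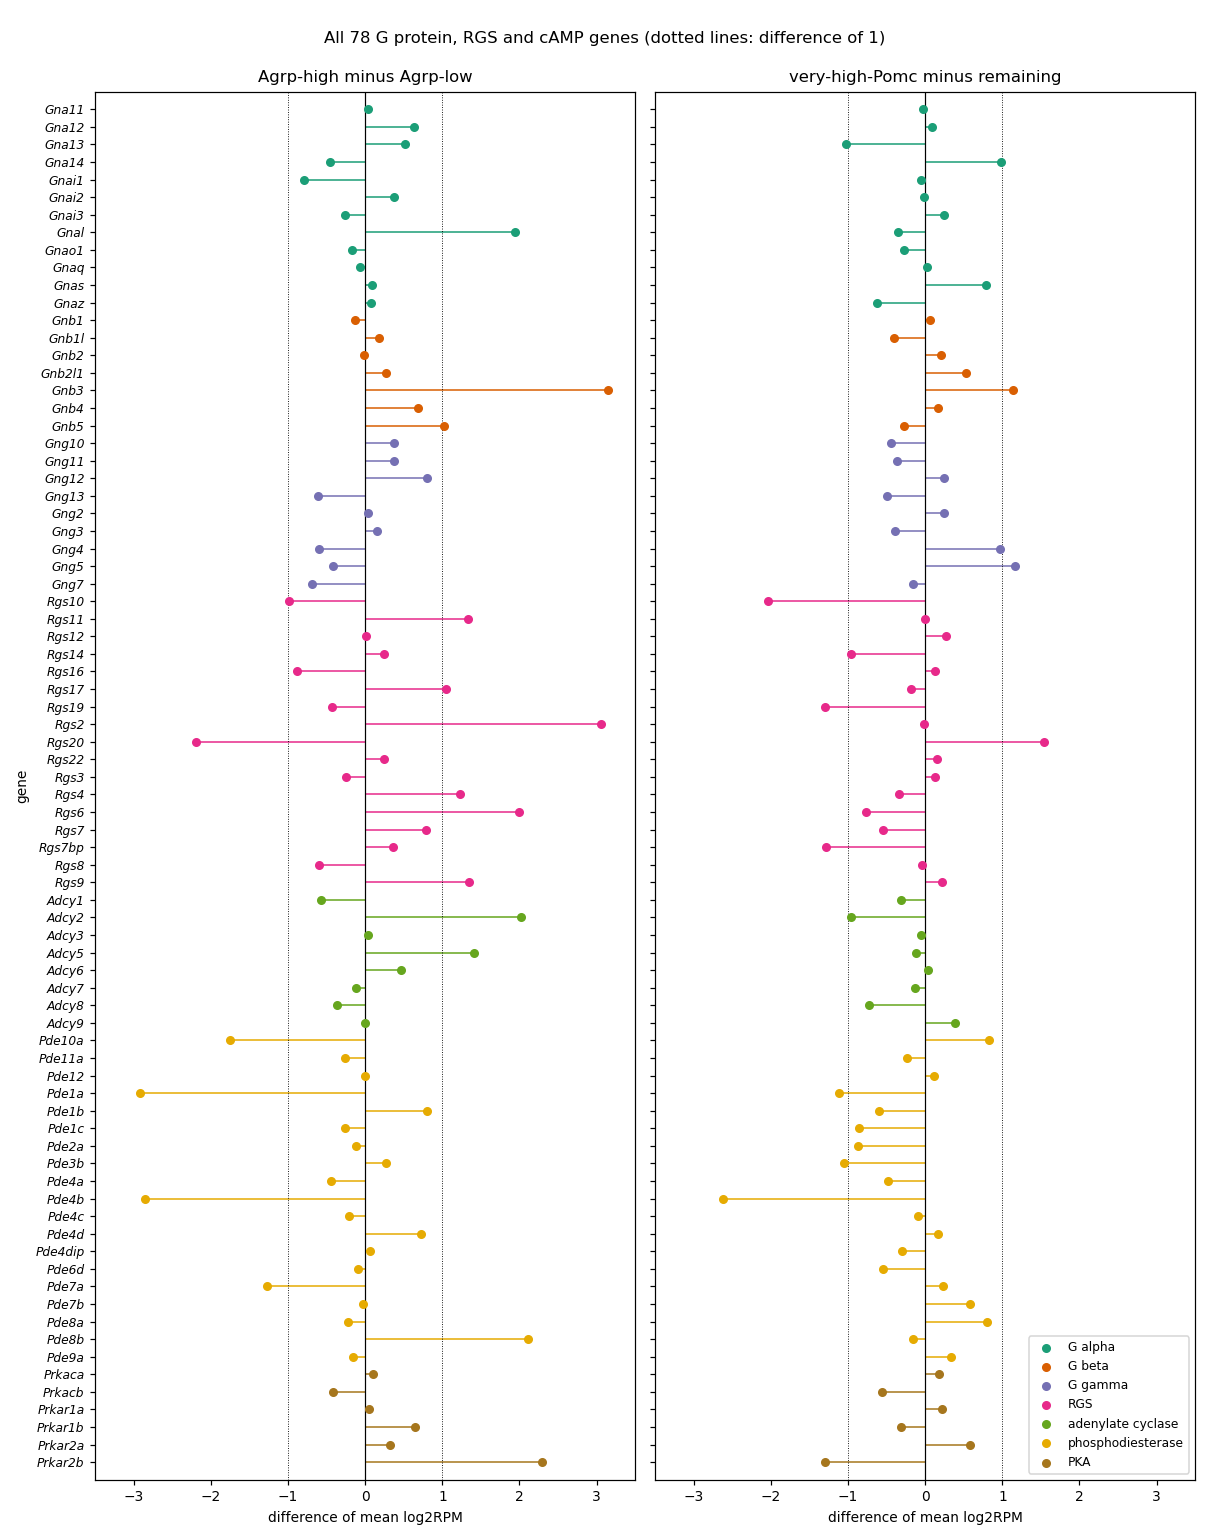
Difference of mean log2RPM for each of the 78 genes, Agrp-high minus Agrp-low cells on the left and very-high-Pomc minus remaining cells on the right, coloured by family, with dotted lines at a difference of 1. In Agrp-high cells Gnb3 (3.15) and Rgs2 (3.06) lie farthest to the right and Pde1a (−2.93) and Pde4b (−2.86) farthest to the left, while Pde4b (−2.63) lies farthest to the left in very-high-Pomc cells.

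The second comparison was made within the Agrp-low cells and set the 34 very-high-Pomc cells against the 81 remaining ones. Here 3 members (3.85%) were higher, against 4.5% of all genes, namely Rgs20, Gng5 and Gnb3. Lower in very-high-Pomc cells were 8 members (10.3%), against 5.1% of all genes: Pde4b, Rgs10, Prkar2b, Rgs19, Rgs7bp, Pde1a, Pde3b and Gna13. The median difference was −0.08 over the members and −0.03 over all genes. The share of members called higher was thus near that of all genes.

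Among the alpha subunits, Gnas, which encodes the stimulatory subunit Gs, was detected in every cell. Its level was 8.80 to 11.47 log2RPM in Agrp-high cells, with a median of 10.51. It was 8.43 to 13.44 log2RPM in very-high-Pomc cells and 7.99 to 12.08 log2RPM in remaining cells, with medians of 10.80 and 10.13. The classes overlapped over most of this range, and the difference stayed under 1 in both comparisons, at 0.09 for Agrp-high and 0.78 for very-high-Pomc cells. The difference for very-high-Pomc cells kept its direction, at 0.34, 0.47 and 1.07 in the 3 stretches of cell numbers. Of the 34 very-high-Pomc cells, 28 lay above the Gnas median of the remaining cells. The Gnas locus produces several overlapping transcripts and an antisense RNA, which these values do not separate.

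Gnal, which encodes Golf, the stimulatory subunit of olfactory neurons and striatum, was the only alpha subunit called in Agrp-high cells. It was detected in all 48 Agrp-high cells (92.6 to 100%) and in 94 Agrp-low cells (81.7%, 73.5 to 88.3%). Its log2RPM ran between 3.21 and 8.31 in Agrp-high cells (median 6.86) and between −0.91 and 8.17 in Agrp-low cells (median 5.42), a difference of 1.94. The upper ends of the classes coincided, and it was the low end that was missing in Agrp-high cells, of which 41 lay above the median of the Agrp-low cells. Per length of transcript Gnal remained minor beside Gnas, with a median of 5.84% of the summed Gnas and Gnal RPM per kb in Agrp-high, 2.33% in very-high-Pomc and 3.26% in remaining cells.

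Among the inhibitory subunits no gene was called, but the gene with the most transcript differed between the classes. Gnai2 was detected in all cells and differed by 0.38 between Agrp-high and Agrp-low cells, and Gnai1 by −0.79, with 43 of 48 Agrp-high cells below the Agrp-low median of Gnai1. Per kb of exon, Gnai2 was the highest of the 5 genes Gnai1, Gnai2, Gnai3, Gnao1 and Gnaz in 46 of 48 Agrp-high cells, 13 of 34 very-high-Pomc cells and 50 of 81 remaining cells, while Gnai1 was the highest in 2, 19 and 24 cells of these classes. With the length of the longest coding transcript in place of all exon bases, Gnai2 came first in 48 Agrp-high, 26 very-high-Pomc and 61 remaining cells, so that the order of Gnai1 and Gnai2 in very-high-Pomc cells rests on the length used. The Gq-type genes Gnaq and Gna11 differed by at most 0.06 in size in both comparisons.

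Gna13 was called lower in very-high-Pomc cells. It was detected in 16 of 34 of them and in 45 of 81 remaining cells, with medians of 1.57 and 3.56 log2RPM and a range of −0.91 to 8.21 log2RPM in very-high-Pomc and −0.91 to 8.08 log2RPM in remaining cells. The difference of −1.03 did not keep its direction, because it was 1.96 within cells 1 to 66, −2.60 within cells 67 to 98 and −1.80 within cells from 99 on.

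Gnb3 had the largest difference of all members. It encodes a beta subunit best known from cone photoreceptors and retinal ON bipolar cells. It was detected in 27 of 48 Agrp-high cells (56.2%, 41.2 to 70.5%), in 7 of 34 very-high-Pomc cells (20.6%, 8.70 to 37.9%) and in 5 of 81 remaining cells (6.17%, 2.03 to 13.8%). Agrp-high cells either held Gnb3 at several log2RPM or scarcely at all, with a lowest value of −0.91, a median of 5.01 and a highest value of 7.84 log2RPM. Agrp-low cells had the same lowest value, a median of −0.40 and a highest value of 9.41 log2RPM, in a cell of the remaining class. The difference was 3.15, and it was 3.12, 3.23 and 3.63 within the 3 stretches of cell numbers. Gnb3 was also called higher in very-high-Pomc than in remaining cells, by 1.14, but that call rested on cells from 99 on (2.66) and turned to −0.47 in cells 1 to 66 and −0.14 in cells 67 to 98. With detection in under 25% of the very-high-Pomc cells it is named there only because its values had been seen.

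**Figure D2:**
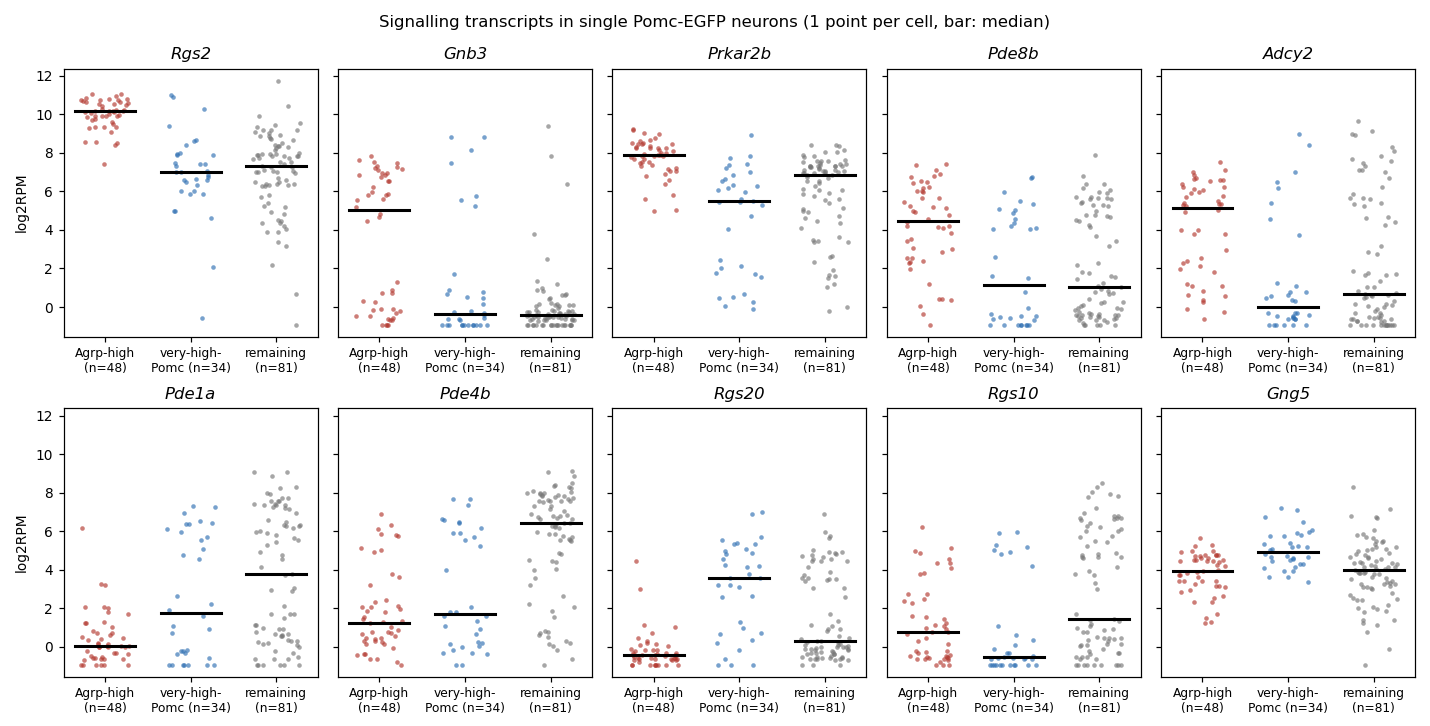
Level of 10 genes in each neuron (log2RPM, 1 point per cell) in 48 Agrp-high, 34 very-high-Pomc and 81 remaining cells, with the median as a bar. Rgs2 forms a narrow band at a median of 10.16 in Agrp-high cells, Gnb3 and Adcy2 split each class into cells with and without the transcript, and Rgs20 has its highest median, 3.57, in very-high-Pomc cells.

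Gnb5 encodes the atypical beta subunit that pairs with RGS proteins of the R7 group instead of a gamma subunit. All 48 Agrp-high cells expressed it at 5.33 to 8.70 log2RPM (median 7.50), whereas 93% of Agrp-low cells did, over a range of −0.91 to 8.68 log2RPM (median 7.01). The difference of 1.03 was carried by Agrp-low cells with little Gnb5, since the difference of medians was 0.48, and it was 0.83 after rescaling on widely expressed genes. Gnb1 and Gnb2, the common partners of gamma subunits, differed by no more than 0.13 in size between Agrp-high and Agrp-low cells.

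Among the gamma subunits no gene was called in Agrp-high cells. Gng3, a neuronal gamma subunit, had the most transcript per kb of exon in 36 of 48 Agrp-high, 23 of 34 very-high-Pomc and 54 of 81 remaining cells. Gng10 was the highest in most others. Both values are uncertain, because 24.2% of the exon bases of Gng3 lie in Bscl2 on the opposite strand and 72% of those of Gng10 in another annotated gene on the same strand, and the reads do not separate them. The only gamma subunit called in very-high-Pomc cells was Gng5, a broadly expressed one. Gng5 was detected in all 34 very-high-Pomc cells, at 3.38 to 7.21 log2RPM (median 4.93), and in 68 of 81 remaining cells, at −0.91 to 8.30 log2RPM (median 4.02). No very-high-Pomc cell was low in Gng5, and 29 of the 34 lay above the median of the remaining cells. The difference was 1.16, with 1.07, 1.40 and 1.02 in the 3 stretches. Gng4 lay just under the limit in the same direction, at 0.98 over all cells and 1.65, 0.98 and 0.54 in the stretches.

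The RGS family differed between the classes in its total amount. Summed over 16 Rgs genes, Agrp-high cells had a median of 516 RPM per kb of exon, very-high-Pomc cells 219.9 and remaining cells 293. In Agrp-high cells most of this was Rgs2, which preferentially acts on Gq and is known as a gene induced by cyclic AMP and by neuronal activity. Rgs2 lies on chromosome 1 (143999338 to 144004161 in GRCm38). Agrp-high cells had 7.44 to 11.03 log2RPM of Rgs2, with a median of 10.16. Very-high-Pomc cells had −0.59 to 10.98 log2RPM (median 7.0) and remaining cells −0.91 to 11.74 log2RPM (median 7.32). All 48 Agrp-high cells lay above the Agrp-low median of 7.25, although the highest Agrp-low cells reached beyond the Agrp-high ones. The difference was 3.06 and ranged between 2.97 and 3.45 within the stretches, whereas very-high-Pomc and remaining cells differed by only −0.02. Per kb of exon, Rgs2 was the highest Rgs gene in 43 of 48 Agrp-high, 11 of 34 very-high-Pomc and 17 of 81 remaining cells, and 44, 11 and 16 with transcript length. Its median share of the Rgs total was 56.4% in Agrp-high, 21.7% in very-high-Pomc and 15.6% in remaining cells.

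**Figure D3:**
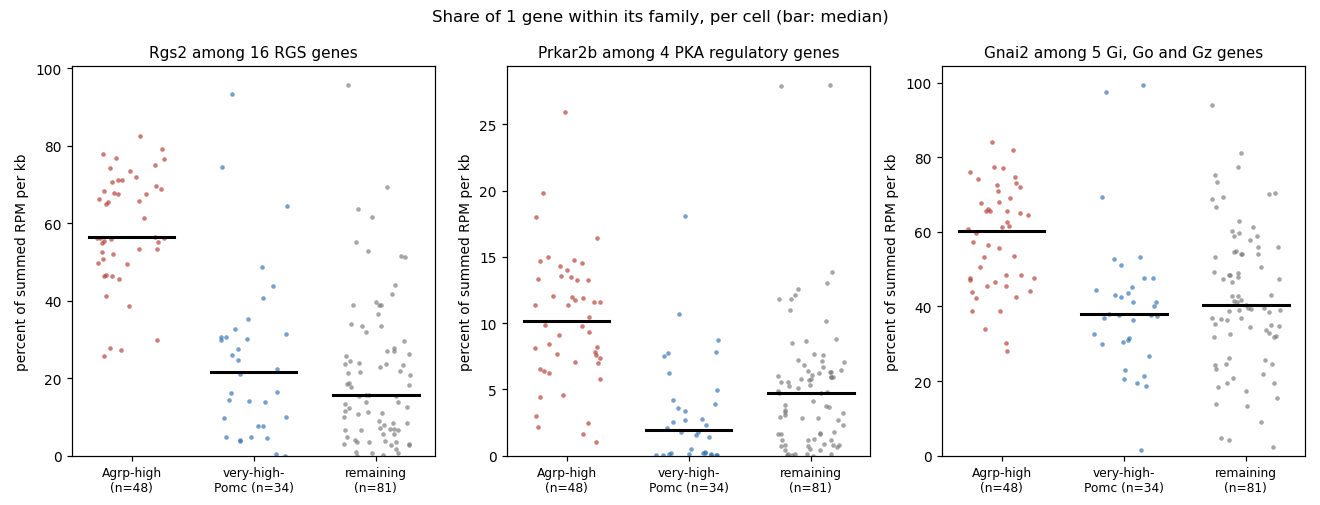
Percent of summed RPM per kb of exon that 1 gene contributed to its family in each cell, for Rgs2 among 16 Rgs genes, Prkar2b among 4 kinase regulatory genes and Gnai2 among 5 inhibitory alpha genes, by class with the median as a bar. The medians are 56.4%, 21.7% and 15.6% for Rgs2 and 10.2%, 1.94% and 4.71% for Prkar2b in Agrp-high, very-high-Pomc and remaining cells.

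Rgs4, which acts on Gi and Gq subunits, was the other abundant family member. It was found at 0.58 to 10.14 log2RPM in Agrp-high cells (median 7.98) and at −0.58 to 11.57 log2RPM in Agrp-low cells (median 7.51). The difference in means was 1.23 and that in medians 0.46, and it was 0.93 and 0.91 in the first and last stretches, so that the call does not hold under these settings. Both Rgs2 and Rgs4 lie on chromosome 1, and their upstream sequences are shown here with that of Pde4b because these 3 hold the short element TGACG, the core of the cyclic AMP response element, and those of Rgs9 and Gnb5 because they form a protein pair and hold none. Each is the 250 bases before the RefSeq start (GRCm38.p6), 5′ to 3′ on the strand of the gene, with TGACG or its complement CGTCA in capitals. The windows are chr1:144004150-144004399 (minus strand) for Rgs2, chr1:169747643-169747892 (minus) for Rgs4, chr4:102421305-102421554 (plus, 1 of 4 starts) for Pde4b, chr11:109298182-109298431 (minus) for Rgs9 and chr9:75306038-75306287 (plus) for Gnb5.
Rgs2: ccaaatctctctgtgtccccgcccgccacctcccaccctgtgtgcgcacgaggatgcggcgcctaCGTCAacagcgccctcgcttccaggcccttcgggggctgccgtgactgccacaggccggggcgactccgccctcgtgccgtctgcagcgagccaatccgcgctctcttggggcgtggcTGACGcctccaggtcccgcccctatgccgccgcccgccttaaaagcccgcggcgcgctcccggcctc
Rgs4: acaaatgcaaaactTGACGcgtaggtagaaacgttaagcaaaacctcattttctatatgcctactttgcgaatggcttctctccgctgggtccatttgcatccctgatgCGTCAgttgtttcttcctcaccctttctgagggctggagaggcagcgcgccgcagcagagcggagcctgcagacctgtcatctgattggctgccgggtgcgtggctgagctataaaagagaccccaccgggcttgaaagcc
Pde4b: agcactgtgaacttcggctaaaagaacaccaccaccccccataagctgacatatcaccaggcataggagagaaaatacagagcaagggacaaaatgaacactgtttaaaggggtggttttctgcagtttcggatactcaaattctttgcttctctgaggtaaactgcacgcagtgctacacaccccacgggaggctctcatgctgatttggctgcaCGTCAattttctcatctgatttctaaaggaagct
Rgs9: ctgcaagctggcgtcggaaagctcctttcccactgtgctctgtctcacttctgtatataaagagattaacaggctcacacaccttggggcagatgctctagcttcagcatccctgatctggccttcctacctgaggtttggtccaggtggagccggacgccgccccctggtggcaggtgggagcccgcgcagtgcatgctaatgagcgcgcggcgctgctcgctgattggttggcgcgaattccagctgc
Gnb5: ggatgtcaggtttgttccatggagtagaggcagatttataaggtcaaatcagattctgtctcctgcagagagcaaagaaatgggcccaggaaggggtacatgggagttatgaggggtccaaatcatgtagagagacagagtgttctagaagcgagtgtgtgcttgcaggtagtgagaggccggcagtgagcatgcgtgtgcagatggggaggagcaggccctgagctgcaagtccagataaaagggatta
Rgs2 and Rgs4 each held 2 such elements and Pde4b held 1. Of the 24 members called in either comparison, 18 were matched to a RefSeq promoter window, and 5 of these held TGACG at some start, the other 2 being Pde1a and Rgs7bp. Of all 62 members with a matched window, 20 held it at some start. A gene with several starts has more windows that can match, so shares of genes and shares of windows are not alike. Over both strands the element was found in 17.8% of all 32851 windows of this length and in 24 windows of the members (21.2%). The full palindrome TGACGTCA was found in 1.55% of all windows and in 1 member window. A match is a stretch of letters and was not tested as a binding site. The called members without a matched window were Gnal, Gnb3, Rgs11, Rgs20, Pde3b and Pde7a.

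The R7 group, Rgs6, Rgs7, Rgs9 and Rgs11, encodes the proteins that need the Gnb5 product for stability and that act on Gi and Go. Rgs9 was the most abundant and is known from striatum and retina. It was detected in 46 of 48 Agrp-high cells, at −0.26 to 8.45 log2RPM (median 7.10), and in 99 Agrp-low cells (86.1%), at −0.91 to 9.44 log2RPM (median 5.99), a difference of 1.35 that was 0.51 within cells 67 to 98. The ranges overlapped, and 41 of 48 Agrp-high cells lay above the Agrp-low median. Rgs11, known from retinal bipolar cells, was detected in 26 of 48 Agrp-high cells, at −0.91 to 8.14 log2RPM (median 3.77), and in 37 Agrp-low cells (32.2%), at −0.91 to 9.57 log2RPM (median 0.57), a difference of 1.33 with overlapping ranges. Rgs7 was detected in 44 of 48 Agrp-high cells and in 84 Agrp-low cells (73%), and its difference of 0.79 was not called.

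Rgs6 was the rarest of the group. Detection was in 20 of 48 Agrp-high cells (41.7%, 27.6 to 56.8%), in 0 of 34 very-high-Pomc cells, which at a limit of 3 cells allows a share of up to 8.82%, and in 9 of 81 remaining cells (11.1%, 5.21 to 20%). Its level ran to 6.71 log2RPM in Agrp-high cells (lowest −0.91, median 0.75) and to 8.19 log2RPM in Agrp-low cells (lowest and median −0.91). The difference of 2.0 was 1.46 in cells 1 to 66 and 2.94 in cells from 99 on, but −0.12 in cells 67 to 98, which hold only 5 Agrp-high cells.

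Counted per cell, at least 3 of the 4 R7 genes were detected together in 33 of 48 Agrp-high cells (68.8%, 53.7 to 81.3%), 7 of 34 very-high-Pomc cells (20.6%, 8.70 to 37.9%) and 23 of 81 remaining cells (28.4%, 18.9 to 39.5%). None of the Agrp-high or very-high-Pomc cells lacked the whole group, whereas 8 of 81 remaining cells did. Rgs9 and Gnb5 were found together in 46 Agrp-high, 29 very-high-Pomc and 64 remaining cells. The R7 anchor Rgs7bp was detected in 38 of 48 Agrp-high cells and 72 Agrp-low cells (62.6%). Its difference of 0.36 was not called and did not keep its direction, with −0.59, −1.74 and 1.53 in the stretches. It was lower in very-high-Pomc cells, at −0.91 to 7.01 log2RPM (median 3.80), against −0.91 to 9.26 log2RPM (median 4.84) in remaining cells, a difference of −1.29 with overlapping ranges that was −0.89, −1.68 and −0.99 in the stretches.

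**Figure D4:**
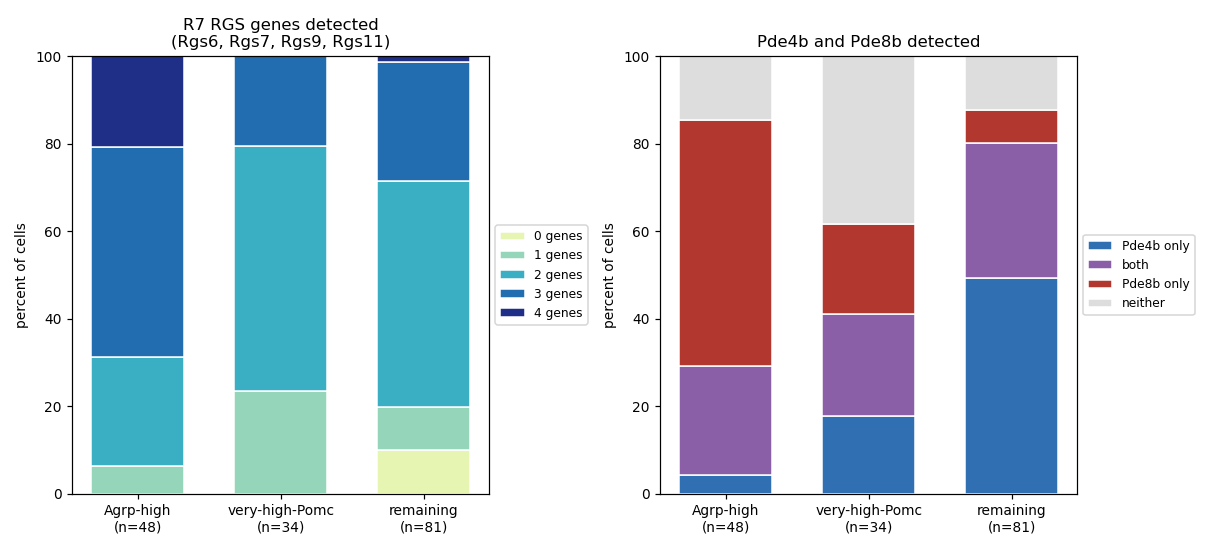
Percent of cells in each class by the number of R7 Rgs genes detected at 5 RPM or more (left) and by detection of Pde4b and Pde8b (right), for 48 Agrp-high, 34 very-high-Pomc and 81 remaining cells. Detection of 3 or 4 R7 genes covers 68.8% of Agrp-high cells, and Pde8b without Pde4b is the state of 27 Agrp-high cells.

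The RZ group, Rgs17, Rgs19 and Rgs20, encodes regulators that act on Gz and Gi, and its members went apart. Rgs20 was detected in 2 of 48 Agrp-high cells (4.17%, 0.509 to 14.3%), 23 of 34 very-high-Pomc cells (67.6%, 49.5 to 82.6%) and 29 of 81 remaining cells (35.8%, 25.4 to 47.2%). Its median was −0.44 log2RPM in Agrp-high cells (range −0.91 to 4.45), 3.57 in very-high-Pomc cells (range −0.91 to 7.0) and 0.32 in remaining cells (range −0.91 to 6.91). Nearly all Agrp-high cells thus lay at the bottom of the range. The difference was −2.19 between Agrp-high and Agrp-low cells and 1.53 between very-high-Pomc and remaining cells, with values of 1.60, 1.64 and 1.36 for the second within the stretches.

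Rgs17 went the other way in Agrp-high cells. It was present in all 48, at 6.30 to 9.26 log2RPM (median 7.76), and in 91.3% of Agrp-low cells, at 0.88 to 9.72 log2RPM (median 7.15). The difference of 1.05 was close to the limit and fell below 1 in 7 of the alternative settings, with 0.60 for medians. Rgs19 was called in very-high-Pomc cells only: 24 of 34 expressed it, at −0.18 to 7.66 log2RPM (median 5.50), against 69 of 81 remaining cells at −0.55 to 8.67 log2RPM (median 6.43). Its difference of −1.30 turned to 0.24 within cells 1 to 66. Rgs10, a small regulator of Gi that is known from microglia as well as neurons, was detected in 8 of 34 very-high-Pomc cells (23.5%, 10.7 to 41.2%) and 39 of 81 remaining cells (48.1%, 36.9 to 59.5%). Its range was −0.91 to 5.95 log2RPM in very-high-Pomc cells (median −0.53) and −0.91 to 8.52 log2RPM in remaining cells (median 1.45), a difference of −2.04 that was −2.34, −3.54 and −1.07 in the stretches. No very-high-Pomc cell reached the upper end of the Rgs10 values in remaining cells. None of 7 microglial markers was among the 12187 genes, so these markers were not analysed here. The part of microglia in the Rgs10 values was not tested.

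Adenylate cyclases were sparse, with a median of 3 of the 8 genes detected in an Agrp-high cell and 2 in very-high-Pomc and remaining cells. Adcy2, a cyclase stimulated by beta-gamma dimers, was detected in 33 of 48 Agrp-high cells (68.8%, 53.7 to 81.3%), 8 of 34 very-high-Pomc cells (23.5%, 10.7 to 41.2%) and 30 of 81 remaining cells (37%, 26.6 to 48.5%). It ran between −0.62 and 7.51 log2RPM in Agrp-high cells (median 5.12) and between −0.91 and 9.67 log2RPM in Agrp-low cells (median 0.57). The highest Agrp-low cells reached beyond every Agrp-high cell, but most Agrp-low cells lay near the floor. Its difference of 2.02 depended on the stretch, at 0.50 in cells 1 to 66, 4.77 in cells 67 to 98 and 2.10 in cells from 99 on, and the first of these holds most Agrp-high cells.

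Adcy5, a cyclase inhibited by Gi and by calcium, was found in 37 of 48 Agrp-high cells (77.1%, 62.7 to 88%) and 60 Agrp-low cells (52.2%, 42.7 to 61.6%). Its log2RPM was −0.91 to 7.02 in Agrp-high cells (median 4.47) and −0.91 to 7.58 in Agrp-low cells (median 2.96), a difference of 1.42 with the full range shared and a value of 0.82 in cells 1 to 66. Golf, this cyclase and the Rgs9 protein are known together from striatal neurons. All 3 transcripts, Gnal, Adcy5 and Rgs9, were detected in 35 of 48 Agrp-high cells (72.9%, 58.2 to 84.7%), 17 of 34 very-high-Pomc cells (50.0%, 32.4 to 67.6%) and 32 of 81 remaining cells (39.5%, 28.8 to 51%). Each of the 3 had been called higher in Agrp-high cells, so the trio is not a separate result. Gnal and Rgs9 were detected in all or nearly all Agrp-high cells, so the count of 35 follows that of Adcy5 (37). Pde10a, which is also abundant in striatal neurons, was lower in Agrp-high cells, at −1.76. The calcium-stimulated cyclases Adcy1 and Adcy8 were detected in 2 and 1 Agrp-high cells and in 15 and 9 Agrp-low cells. No cyclase was called in very-high-Pomc cells.

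Phosphodiesterases were the family with the most members lower in Agrp-high cells, 4 of 19. Pde4b, a cyclic AMP-specific enzyme, was detected in 14 of 48 Agrp-high cells (29.2%, 17 to 44.1%), 14 of 34 very-high-Pomc cells (41.2%, 24.6 to 59.3%) and 65 of 81 remaining cells (80.2%, 69.9 to 88.3%). Its log2RPM was −0.91 to 6.91 in Agrp-high cells (median 1.26), −0.91 to 7.70 in very-high-Pomc cells (median 1.72) and −0.91 to 9.13 in remaining cells (median 6.44). Pde4b was mainly a transcript of the remaining cells, with 45 of 48 Agrp-high cells below the Agrp-low median and 27 of 34 very-high-Pomc cells below that of the remaining cells. The difference was −2.86 in the first comparison (−3.33, −1.81 and −3.88 in the stretches) and −2.63 in the second (−2.50, −4.37 and −1.60).

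Pde1a, an enzyme switched on by calcium and calmodulin, was nearly absent from Agrp-high cells. Only 3 of 48 expressed it (6.25%, 1.31 to 17.2%), against 60 Agrp-low cells (52.2%, 42.7 to 61.6%). The levels were −0.91 to 6.19 log2RPM in Agrp-high cells (median 0.06) and −0.91 to 9.09 log2RPM in Agrp-low cells (median 2.97), a difference of −2.93. A call of −1.11 in very-high-Pomc cells (15 of 34 detected, at −0.91 to 7.31 log2RPM, against 45 of 81 remaining cells, at −0.91 to 9.09 log2RPM) was −0.46 and −0.85 in the first 2 stretches. Its relative Pde1b was not called in either comparison, with differences of 0.81 and −0.60.

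Pde8b, a high-affinity cyclic AMP enzyme, had the opposite pattern. Detection was in 39 of 48 Agrp-high cells (81.2%, 67.4 to 91.1%), 15 of 34 very-high-Pomc cells (44.1%, 27.2 to 62.1%) and 31 of 81 remaining cells (38.3%, 27.7 to 49.7%). Agrp-high cells had −0.91 to 7.44 log2RPM of Pde8b (median 4.49) and Agrp-low cells −0.91 to 7.87 log2RPM (median 1.06), a difference of 2.11 that was 1.80, 1.89 and 2.84 in the stretches. Taken with Pde4b, 27 Agrp-high cells had Pde8b alone, 2 had Pde4b alone, 12 had both and 7 neither. Among very-high-Pomc cells 7 had Pde8b alone, 6 had Pde4b alone, 8 had both and 13 neither, and among remaining cells these counts were 6, 40, 25 and 10.

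Pde10a, a dual-specificity enzyme abundant in striatal neurons, was detected in 24 of 48 Agrp-high cells and 84 Agrp-low cells (73%). It ran between −0.91 and 8.02 log2RPM in Agrp-high cells (median 2.18) and between −0.91 and 9.28 log2RPM in Agrp-low cells (median 5.30), a difference of −1.76. Pde7a, another cyclic AMP-specific enzyme, was detected in 13 of 48 Agrp-high cells, at −0.91 to 6.35 log2RPM (median 0.31), and in 53 Agrp-low cells (46.1%), at −0.91 to 8.34 log2RPM (median 1.76), a difference of −1.27. For both genes the ranges overlapped, and fewer Agrp-high cells expressed them. Pde3b, an enzyme that insulin signalling activates in fat and liver cells, was detected in 6 of 34 very-high-Pomc cells, at −0.91 to 6.88 log2RPM (median −0.58), and in 27 of 81 remaining cells, at −0.91 to 7.70 log2RPM (median 0.49). Its difference of −1.05 was −0.02 in cells 1 to 66. Summed over the 16 cyclic nucleotide phosphodiesterases, the median was 27.2 RPM per kb of exon in Agrp-high, 47.3 in very-high-Pomc and 54.6 in remaining cells, with ranges that overlapped (4.66 to 82.8, 2.38 to 139.6 and 2.18 to 187.5).

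Of the 6 kinase genes, only the regulatory gene Prkar2b was called. Prkar1a, the regulatory subunit of type I kinase that occurs in all tissues, had the narrowest spread of the 6 genes, at 10.63 ± 0.27 log2RPM in Agrp-high cells and 10.58 ± 0.47 log2RPM in Agrp-low cells (SD over cells). The catalytic genes differed by 0.10 (Prkaca) and −0.42 (Prkacb) between Agrp-high and Agrp-low cells and by 0.18 and −0.57 between very-high-Pomc and remaining cells. Prkacb was under the limit of 1 but kept its direction, since 42 of 48 Agrp-high cells lay below the Agrp-low median and the difference was −0.35, −1.16 and −0.26 in the stretches. Prkar1b differed by 0.64 in Agrp-high cells, with 0.77, 0.55 and 0.76 in the stretches, and by −0.31 in very-high-Pomc cells. The differences of Prkar2a were 0.33 and 0.59.

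Prkar2b encodes the type II regulatory subunit of brain and fat. Expression was detected in all 48 Agrp-high cells (92.6 to 100%), 23 of 34 very-high-Pomc cells (67.6%, 49.5 to 82.6%) and 73 of 81 remaining cells (90.1%, 81.5 to 95.6%). Its level was 5.0 to 9.25 log2RPM in Agrp-high cells (median 7.90), −0.10 to 8.94 log2RPM in very-high-Pomc cells (median 5.48) and −0.19 to 8.42 log2RPM in remaining cells (median 6.86). The order of the medians was Agrp-high, remaining, very-high-Pomc, with overlap at each step. Agrp-high cells were 2.29 above Agrp-low cells (1.78, 2.26 and 2.87 in the stretches), and very-high-Pomc cells were lower than remaining cells, at −1.30, a value that was −1.15, −2.0 and −0.94 in the stretches and became −0.70 with a Pomc limit of 11. Per kb of exon, Prkar2b made up a median of 10.2% of the regulatory transcripts in Agrp-high cells, 1.94% in very-high-Pomc cells and 4.71% in remaining cells, while Prkar1a made up 57%, 69% and 60.8%.

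**Figure D5:**
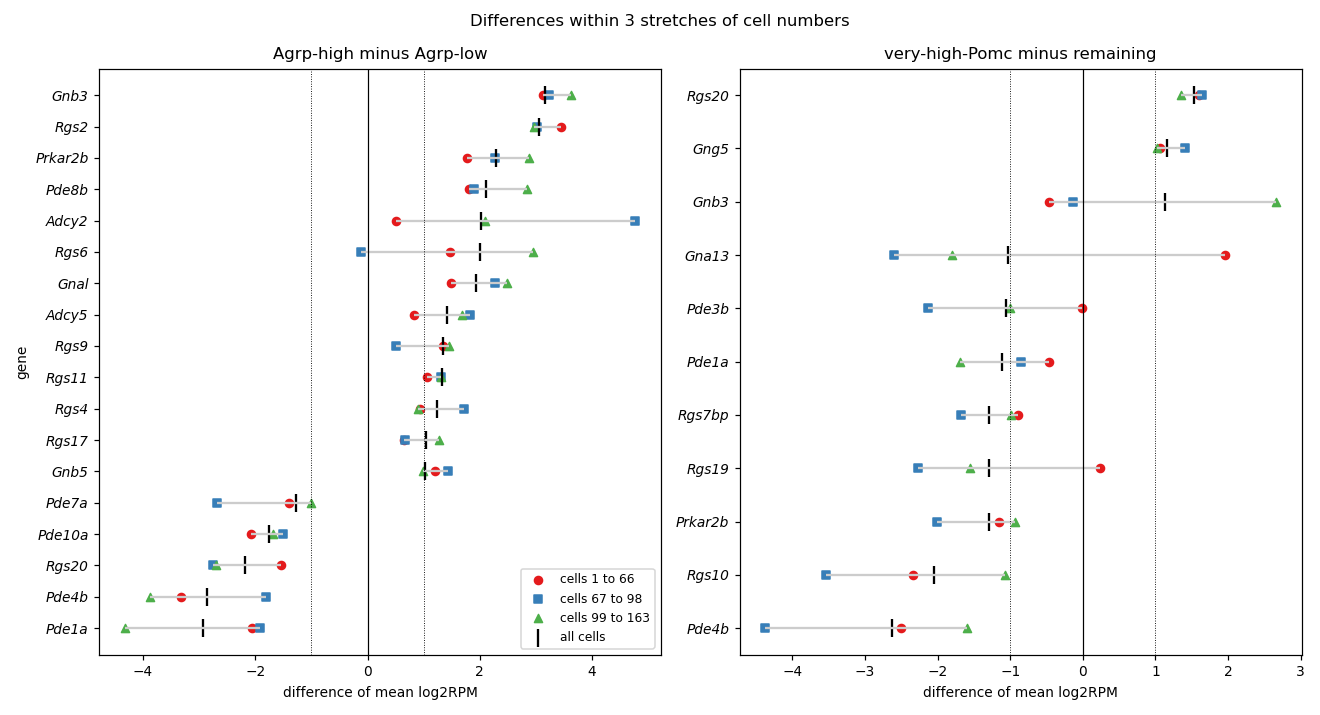
Difference of mean log2RPM of each called gene within cells 1 to 66, 67 to 98 and from 99 on (coloured markers) and over all cells (black bar), for Agrp-high minus Agrp-low cells on the left and very-high-Pomc minus remaining cells on the right. Gnb3, Rgs2, Pde4b and Pde1a keep their direction in each stretch of the left panel, while Rgs6 on the left and Gna13, Gnb3 and Rgs19 on the right do not.

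Co-variation of the members was described within the Agrp-low cells. The 43 genes detected in 20% to 95% of cells gave 903 pairs, with rank correlations from −0.34 to 0.45 (median 0.06) over cells that share normalisation and source. The highest was 0.45 for Gnai1 and Prkar2a, which was 0.28, 0.44 and 0.50 within the stretches and 0.14 in the 48 Agrp-high cells. It was followed by Gnal with Pde9a (0.41), Adcy2 with Pde4a (0.34), Gnal with Gnaz (0.33) and Gnaz with Prkar2a (0.33). In the Agrp-high cells these 4 were −0.32, −0.32, 0.30 and 0.11, so that the first pair and the second turned round, and Gnaz with Prkar2a was 0.20 within cells 67 to 98 and 0.57 within cells from 99 on but 0.0035 within cells 1 to 66. The lowest were Gng5 with Pde2a (−0.34), Gnb4 with Rgs11 (−0.31) and Gnal with Gng5 (−0.31), and the last was 0.07 within cells 67 to 98. Gnal also correlated with the number of reads in the cell, at 0.26, and the part of depth in these pairs was not tested.

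Of 63 further genes of the pathway (kinase anchors, kinase inhibitors, exchange factors, cyclic AMP-responsive factors, receptor kinases, phospholipases and guanylate cyclases), 55 were analysed here. In Agrp-high cells 4 of the 55 were higher and 1 was lower, a share of 7.27% and 1.82%, against 8.65% and 2.94% of all genes, with a median difference of 0.08. The 4 were the anchoring proteins Akap13 (2.49) and Akap12 (1.69), the cyclic AMP-activated exchange factor Rapgef4 (1.39) and the guanylate cyclase subunit Gucy1a3 (1.11), and the lower one was the Gq target Plcb1 (−1.40). Akap13 was detected in 33 of 48 Agrp-high and 28 Agrp-low cells.

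In very-high-Pomc cells 4 of the 55 were higher and 8 lower, a share of 7.27% and 14.5%, against 4.5% and 5.1% of all genes, with a median of −0.11. The inhibitor peptides of the kinase went apart: Pkib was higher by 1.77 (detected in 33 of 34 very-high-Pomc and 72 of 81 remaining cells), and Pkia was lower at −2.48 (23 of 34 and 76 of 81). Also higher were Crem (1.68), a cyclic AMP-responsive transcription factor, the receptor kinase Adrbk2 (1.20) and the coactivator Crtc2 (1.07). The others that were lower were Arpp21 (−1.75), Nos1 (−1.48), Gprin1 (−1.32), Adrbk1 (−1.25), Akap6 (−1.11), Gucy1b3 (−1.09) and Ric8 (−1.07). Arpp21 was detected in only 1 of 34 very-high-Pomc and 19 of 81 remaining cells, and Nos1 in 5 and 30. Values within the stretches are not given for these further genes.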

How the data were processed

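RNA from sorted GFP-positive neurons was amplified with SMART-Seq v4, made into Nextera XT libraries and sequenced on an Illumina HiSeq. Per the labels and the study's methods, the authors aligned reads to GRCm38 with TopHat2 2.0.11, counted them with Cufflinks 2.2.1 and normalised them with edgeR and limma, and the deposited values are log2RPM (log2 of reads scaled to a common total) for 12187 genes. Whether the batch correction named in the methods is in these values is not given in the sources used here. Reads were not strand-specific, so overlapping genes are not separated; 7 of the 78 members share over 20% of their exon bases with another annotated gene. All members and lists were chosen with earlier results of these data known.

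Values were read with Python 3.11.15, numpy 2.4.6, pandas 2.3.3 and scipy 1.17.1. The values were turned back to linear RPM above the floor of 0.532 RPM, and 99.3% of values up to 20 reads were whole reads within 0.1 read. Differences of class means were computed over all genes, and 1 was the limit for higher or lower. This step was tested on values shuffled over cells, with a uniform shift well above the limit added to chosen genes in Agrp-high cells. That test does not show how differences close to 1 behave. The members named in a comparison were those past the limit and detected by 25% or more of the class with the higher mean, up to 12 a direction, with widely detected subunits added. Levels between genes were compared per kb of GENCODE M21 exon bases. Pseudocounts, limits, scaling, depth, centres and stretches of cell numbers were varied. GFP-negative and pituitary cells were not used here.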

Additional observations from a re-analysis of the deposited data

How the results depend on the processing

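For the 29 differences of named members, 330 alternative values were computed. Of these, 276 kept their direction and their side of the limit of 1, 49 kept the direction but fell below the limit, and 5 turned round. The 5 were Rgs6 in Agrp-high cells within cells 67 to 98 (−0.12) and, in very-high-Pomc cells, Gna13 (1.96), Gnb3 (−0.47) and Rgs19 (0.24) within cells 1 to 66 and Gnb3 within cells 67 to 98 (−0.14). The cause was not tested. Keeping only members found in at least 10% of cells gave 29 of the 276 values. This setting could not change the difference of a named member. An Agrp limit of 8 moved only the cell at 9.99 log2RPM and gave 18 of the 276. A pseudocount of 0.1 RPM, which widens differences of low values, gave another 29. The values from these settings thus add little. With a pseudocount of 5 RPM the members called higher in Agrp-high cells numbered 7 in place of 13, and in very-high-Pomc cells 0 in place of 3 were higher and 2 in place of 8 lower, while a pseudocount of 0.1 RPM gave 6 higher and 14 lower in very-high-Pomc cells. A larger pseudocount shrinks differences of low values by construction. Members lower in Agrp-high cells numbered 10 within cells 1 to 66 and 16 within cells 67 to 98, in place of 5, with the 5 among them each time. In very-high-Pomc cells 12, 7 and 8 members were higher within the 3 stretches, 5 were higher with a Pomc limit of 13, and 15 were lower within cells 67 to 98. The shares of all genes called under these other settings are not given here, so these counts are not a result about the members. Detection at 1 RPM gave 52 members per Agrp-high cell in place of 46, and thinning to 3 M reads gave 46. Rescaling on genes found in at least 90% of cells moved the median of all genes by −0.16 in the first comparison and 0.01 in the second, and 11 of the 13 members called higher in Agrp-high cells stayed so, without Gnb5 and Rgs17. With transcript length in place of exon bases, chosen after seeing the data, Gnai2 came first among inhibitory subunits in 26 in place of 13 very-high-Pomc cells. No paired analysis was possible because the labels name no animal, plate or batch by which cells could be paired.

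With no animal named for a cell, differences between animals, plates and classes cannot be told apart. At the approximate limit of 3 cells, a count of 0 over the 48 Agrp-high cells allows a share of up to 6.25%. Low transcripts can be missed in single cells.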
